A study of Mus musculus with 11 samples.

Results

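The 7 genes Matn4, Emid1, Prss23, Cpxm2, Smoc2, Fbln2 and Socs2 were taken as candidate markers of supporting cell (SC) subtypes in the floor of the mouse cochlear duct. They were named by symbol, out of 24898 genes listed at 1 or more ages, and all 7 are listed at all 4 ages. They had been picked with their levels in these same libraries known, so their levels in SC groups against other cells are given as a description, without a test. The libraries are droplet single-cell libraries from wild-type CD1 mice at E14 (2 libraries), E16 (3), P1 (4) and P7 (2, numbered replicates 4 and 5), and no genotype or treatment other than age separates them. Each library is its own collection of ducts pooled from several animals of either sex, and every age was collected on its own, so age and collection cannot be told apart. The 30634 cells were placed in groups by the unique molecular identifiers (UMIs, 1 for each captured transcript) of 5 genes that mark SCs, called gates here: at least 3 UMIs of Npy (404 cells) or Pmch (205 cells), or at least 1 UMI of Fgf3 (605 cells), Prox1 (998 cells) or Fgfr3 (1794 cells). A cell could pass several gates, and 2827 cells passed at least 1. Cells with none of the 5 transcripts are called ungated (23026 cells). They can include SCs in which none of the 5 was captured. A further 2061 cells, with transcripts of at least 3 of 10 hair cell (HC) markers, form the HC group.

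The organ of Corti is a strip of HCs set among SCs of several shapes: inner phalangeal and border cells around the inner HCs, inner and outer pillar cells that frame the tunnel, Deiters' cells under the outer HCs, and Hensen's cells at the lateral edge. SCs hold the HCs in place, keep up the ionic surroundings and, with the cells of Kolliker's organ medial to them, secrete extracellular matrix. Of the 7 genes, 4 code for secreted matrix proteins: Matn4 (a matrilin, an adaptor of matrix filaments), Emid1 (which carries an EMI domain), Smoc2 (a calcium-binding protein related to SPARC) and Fbln2 (a fibulin of basement membranes and elastic fibres). Prss23 codes for a secreted trypsin-like serine protease, Cpxm2 for a carboxypeptidase-like secreted protein thought to lack activity, and Socs2 for an intracellular protein that dampens cytokine and growth hormone signalling.

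All 7 are protein-coding genes. In GRCm38, the assembly also called mm10, Matn4 lies on chr2:164389393-164405160 (reverse strand), Emid1 on chr11:5106265-5152257 (reverse), Prss23 on chr7:89507783-89527187 (reverse), Cpxm2 on chr7:132032687-132154739 (reverse), Smoc2 on chr17:14279506-14404790 (forward), Fbln2 on chr6:91212455-91272540 (forward) and Socs2 on chr10:95385362-95417180 (reverse). SCs are known for active Notch signalling, whose DNA-binding factor is RBPJ, so the promoters of the members were searched for its core letters, TGGGAA on either strand (TTCCCA on the other). RefSeq promoters (GRCm38.p6, 250 bases before to 50 after a start) were at hand for 5 members, 13 promoters in all. Those of Matn4 and Emid1, the members whose highest P1 level among the gates was in the Fgf3 gate alone and in the Npy gate alone, with no overlap, are shown where they hold the motif, in capitals, 5′ to 3′ on the gene's strand. The Matn4 promoter at chr2:164404769-164405068 has 2 matches, 233 and 58 bases before the start, and the Emid1 promoter at chr11:5152181-5152480 has 1, 161 bases before the start.
Matn4: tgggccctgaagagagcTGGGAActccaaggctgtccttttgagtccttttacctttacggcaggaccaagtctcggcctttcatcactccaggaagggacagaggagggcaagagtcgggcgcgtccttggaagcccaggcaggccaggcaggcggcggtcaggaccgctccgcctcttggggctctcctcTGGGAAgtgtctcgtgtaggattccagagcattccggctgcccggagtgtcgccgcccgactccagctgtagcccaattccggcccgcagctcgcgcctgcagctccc
Emid1: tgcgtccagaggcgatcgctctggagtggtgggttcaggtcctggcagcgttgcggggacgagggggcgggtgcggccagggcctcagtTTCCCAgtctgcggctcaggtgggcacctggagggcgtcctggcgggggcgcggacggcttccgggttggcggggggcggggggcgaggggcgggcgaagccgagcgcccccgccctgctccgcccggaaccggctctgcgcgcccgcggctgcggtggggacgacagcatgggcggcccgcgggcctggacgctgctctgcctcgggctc
A match was found in 1 of 2 promoters of Matn4, 1 of 2 of Emid1, 2 of 7 of Prss23, 0 of 1 of Cpxm2 and 0 of 1 of Fbln2. The same letters occur in 25.6% of all 32851 promoters of this length, so a match does not set a member apart, and it is neither a measured site nor a cause of any level given below.

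The libraries hold 1247 to 5598 cells and 3828399 to 23523802 UMIs, with a median of 2478 to 5647.5 UMIs per cell, lowest at E16. A level is the mean, over the cells of a group in a library, of a gene's UMIs per 1000000 UMIs of the cell (CPM), and groups under 5 cells in a library were given no level. That left the Pmch gate without a value at E14, where it has 4 cells, and the Fgf3 gate with 1 library of 10 cells at P7. The P7 Prox1 gate has 15 and 21 cells. Barcodes shared by pairs of libraries were at most 36 in number and at most 0.958% of the smaller library.

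The gates were compared with marker lists that hold no gating gene. At P1 the list for pillar cells (Ngfr, Cd44, Tectb, S100b, Npnt, Smagp) summed to 4645 to 7424 CPM in the Npy gate, against 671 to 2468 in ungated cells. The list for Deiters' cells (among them Hes5, Lfng and Bmp2) summed to 3663 to 4494 CPM in the Prox1 gate and 2691 to 3429 in the Fgfr3 gate, against 137 to 328 in ungated cells. Each of these gates thus carried the list of a cell type it is known for, but not that list alone, since the Npy gate also had 2235 to 4301 CPM of the Deiters' list and the Fgfr3 gate 2139 to 3506 CPM of the list for Kolliker's organ (Calb1, Epyc, Crabp1, Tecta), which was at 733 to 1069 CPM in the Prox1 gate and 5043 to 7397 CPM in ungated cells. The Fgf3 gate was mixed. Cells with a UMI of Fgf3 and also of Prox1 or Fgfr3 (172 cells at P1) had 4043 to 5539 CPM of the Deiters' list, whereas Fgf3 cells with neither (217 cells at P1) had 778 to 2657 CPM of it. Among genes of inner phalangeal and border cells, the transporter gene Slc1a3 was at 188 to 241 CPM in the cells without and 52.2 to 131 CPM in the cells with, and the connexin genes Gjb2 (3285 to 3921 against 94.2 to 266 CPM) and Gjb6 (495 to 1199 against 0 to 32.0 CPM) and Fabp7 (450 to 3550 against 0 to 53.0 CPM) were also higher in the cells without in every library. Hes5 was at 359 to 1948 CPM without and 1305 to 2723 CPM with. The paper also finds Gjb2 and Gjb6 in Kolliker's organ and Fabp7 beside the organ of Corti. These genes therefore do not by themselves name the cells without. The cells without also had 882 to 3899 CPM of the list for Hensen's cells (Fst, Egfl6, Fam159b, Plet1, Fabp7), against 348 to 1343 CPM in the cells with, but of this Fabp7 (450 to 3550 CPM) made up the larger part in each library and Fst only 6.36 to 139 CPM. The parts of the gate are called Fgf3 cells with and without Prox1/Fgfr3. HC markers, which were used to leave cells out of the gates, summed to 49.0 to 266 CPM in the P1 gates.

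The Pmch gate at P1 had 3762 to 5939 CPM of the list for Hensen's cells, against 78.6 to 340 in ungated cells, and 1819 to 4175 CPM of the list for Claudius and outer sulcus cells (Bmp4, Fst, Gata2), against 113 to 227 in ungated cells. In P1 replicate 2, where the gate has 11 cells, the Deiters' list reached 2760 CPM, against 206 to 298 in the other 3 libraries. At P7 the list for Hensen's cells summed to 1185 and 1710 CPM in the gate, against 873 and 790 CPM in ungated cells. Of its genes, Fst was at 90.7 and 93.7 CPM (1134 to 3165 at P1), Egfl6 at 9.73 and 18.7 CPM (426 to 847 at P1) and Fam159b at 38.2 and 104 CPM (443 to 1352 at P1), while Plet1 was at 658 and 670 CPM (82.0 to 284 at P1) and Fabp7 at 389 and 824 CPM (176 to 1584 at P1). Epyc, a gene of Kolliker's organ, was at 1968 and 2225 CPM. The P7 group is called only by its gate. In E16 replicate 2, blood genes summed to 1609 CPM in the Prox1 gate and 828 in ungated cells, against at most 82.8 CPM in any P1 gate or ungated group. The part of any of these in the results was not tested.

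**Figure D1:**
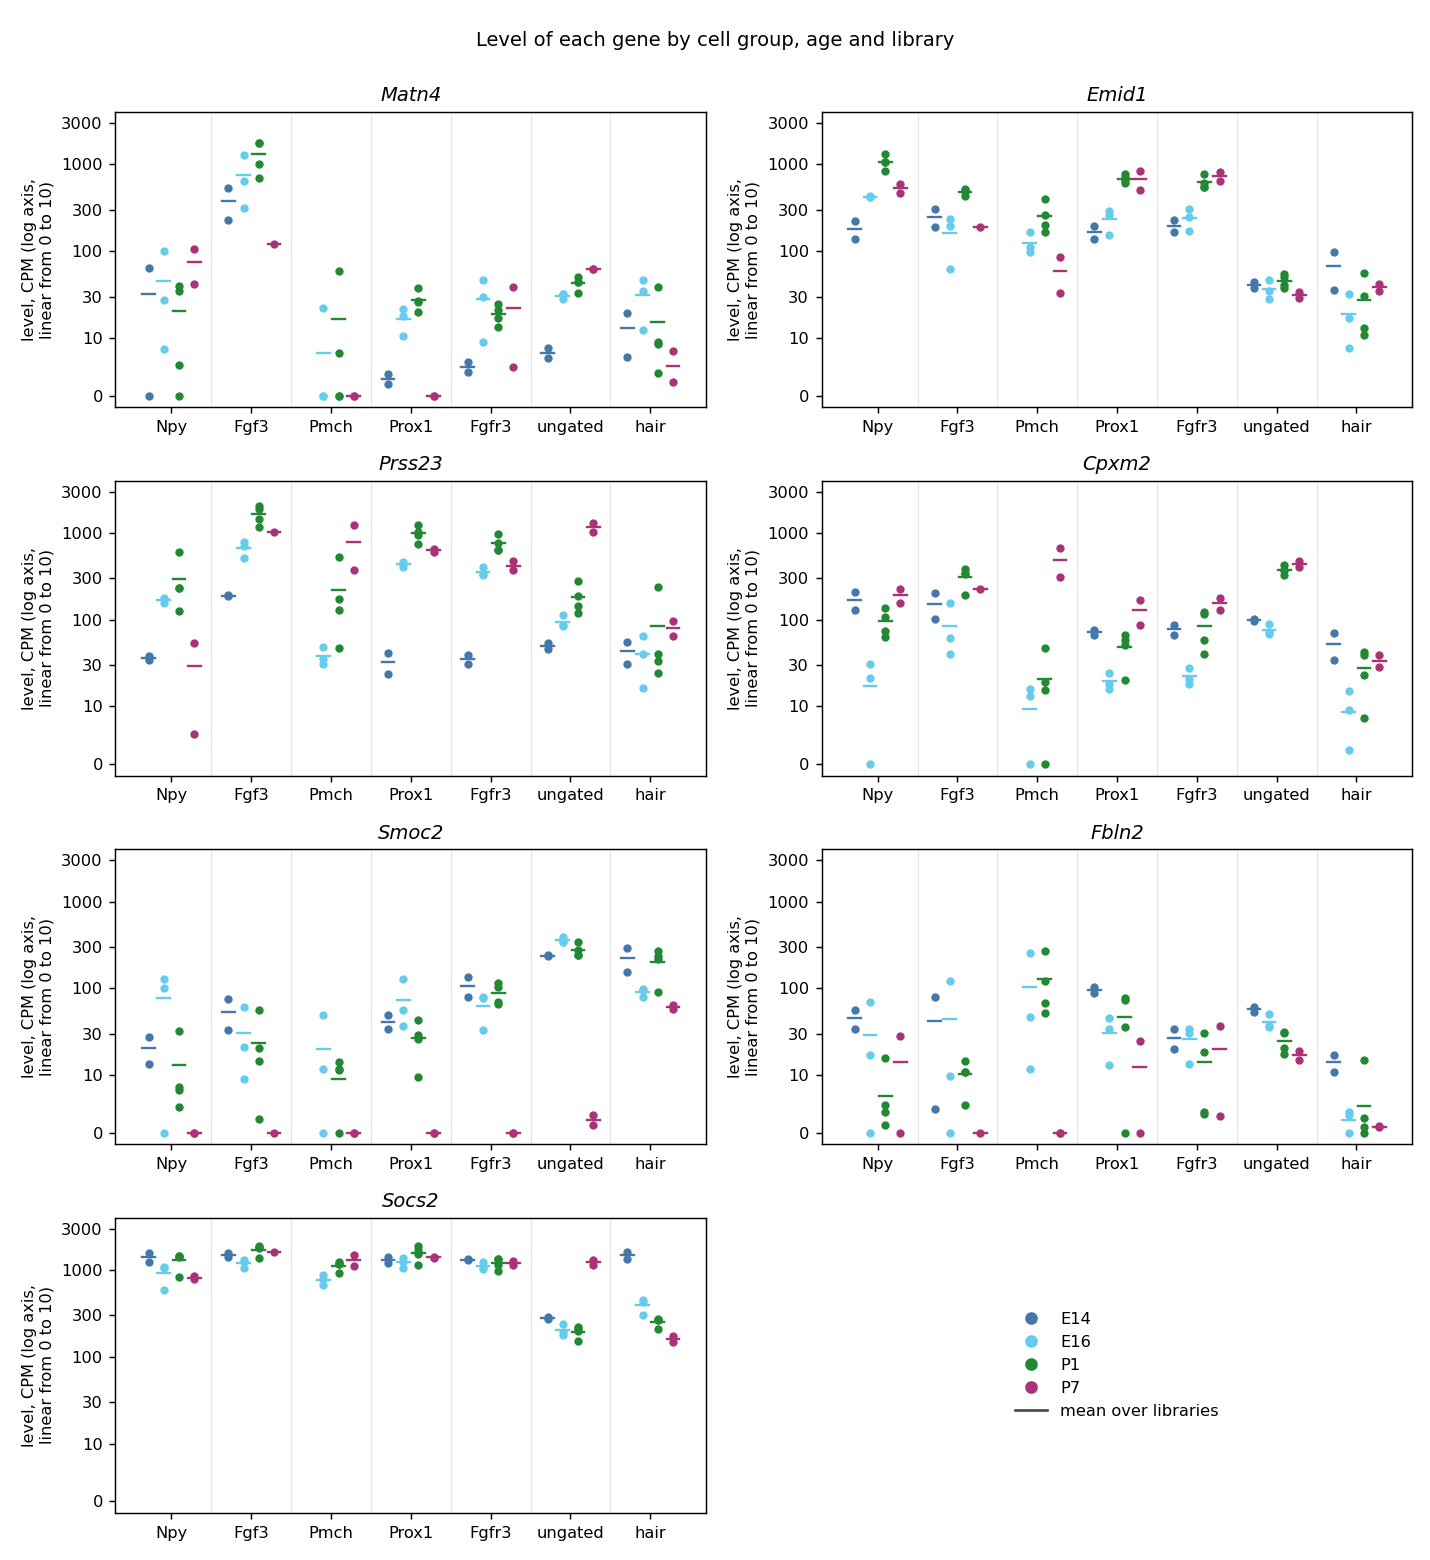
Level of each of the 7 genes in CPM (log axis, linear from 0 to 10) in the 5 gates, in ungated cells and in the HC group, with 1 point for each library and a line for the mean of an age. Emid1 is highest in the Npy gate at P1 (843 to 1310 CPM), Matn4 is high only in the Fgf3 gate (700 to 1764 CPM at P1), and Smoc2 and Cpxm2 have their highest P1 means in ungated cells.

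Matn4, of the matrix genes, was high in the Fgf3 gate and in no other gate from E14 to P1. At P7 the Npy gate, at 41.9 and 107 CPM, came near the Fgf3 gate. In the Fgf3 gate Matn4 was at 531 and 228 CPM at E14, at 649, 319 and 1293 CPM at E16, at 700, 1764, 1761 and 1021 CPM at P1 and at 120 CPM in the single P7 library. Every P1 library of this gate lay above every P1 library of every other group shown, which ranged from 0 to 58.8 CPM. At P1 the Fgf3 gate had 1312 ± 537 CPM (SD, n = 4) and the next group, ungated cells, 42.9 ± 6.99 CPM. The ungated, Prox1, Npy, Fgfr3, Pmch and HC groups overlapped in that order.

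Within the Fgf3 gate, Matn4 lay almost wholly in the cells without Prox1/Fgfr3. Those had 1367, 2440, 2690 and 1899 CPM at P1, and 893, 430 and 1725 CPM at E16. Fgf3 cells with Prox1/Fgfr3 had 56.7, 98.7, 58.4 and 86.2 CPM at P1, and 0, 152 and 42.7 CPM at E16. The parts did not overlap at E14, E16 or P1. How many of all genes were apart between the parts was not counted, here or for Emid1 and Cpxm2 below. The parts are small at E14, with 7 and 7 cells with Prox1/Fgfr3 and 9 and 19 without. The 0 CPM at E16 comes from replicate 1, which has 6 cells with Prox1/Fgfr3. When every cell was drawn down to 1500 UMIs, Matn4 was found in 63.1% of the P1 cells without (95% exact binomial interval 56.3 to 69.6%, counting error only) and 7.56% of those with (4.09 to 12.6%), at median depths of 6011 and 6487 UMIs. It was found in 1.25% of HCs (0.684 to 2.09%; median depth 6705 UMIs; 0.717% without P1 replicate 1), taken here as background, and in 2.23% of ungated cells.

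**Figure D2:**
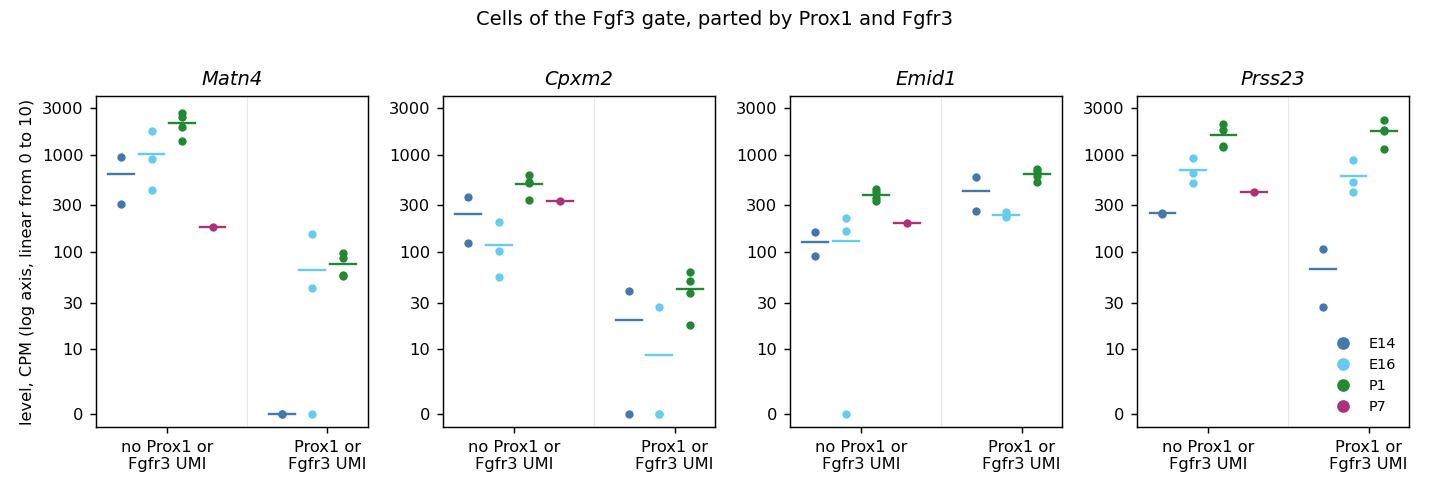
Level in CPM (log axis, linear from 0 to 10) of Matn4, Cpxm2, Emid1 and Prss23 in Fgf3 cells with and without a UMI of Prox1 or Fgfr3, by age, with 1 point for each library and a line for the mean. Matn4 and Cpxm2 lie in the cells without (1367 to 2690 and 339 to 610 CPM at P1), Emid1 leans to the cells with, and Prss23 lies in both.

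Other cells without any gating transcript also held Matn4. Ungated cells with at least 2 UMIs of Fabp7, a group added after the levels had been seen, had 926, 1140 and 1233 CPM at E16, 404, 859, 723 and 993 CPM at P1, and 71.3 and 66.4 CPM at P7. Both in these cells and in the Fgf3 gate, then, the P7 values lay below every P1 value. The same held in the Prox1 gate, where Matn4 was weak at P1 already (mean 27.5 CPM) and at 0 CPM at P7. In that gate 2771 of 8739 genes did not overlap between P1 and P7. Matn4 was not lower at P7 in all groups: ungated cells were at 62.5 and 62.0 CPM at P7, against 33.3 to 50.1 CPM at P1. Fst cells had a UMI of Matn4 in 25.8% of thinned cells at P7, against 5.74% at P1. At P7 the glia group, cells with at least 2 glia markers, had 427 and 351 CPM of Matn4, against 3.24 to 13.7 CPM at P1.

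Emid1 was above ungated cells in all 5 gates at P1 and highest in the Npy gate. In the Npy gate it was at 224 and 137 CPM at E14, 419, 421 and 438 CPM at E16, 843, 1310, 1070 and 1065 CPM at P1, and 602 and 467 CPM at P7. The libraries of the Npy gate did not overlap between E14, E16, P1 and P7. Between E16 and P1, 1089 of 8824 genes in this gate did not overlap. Gaps were more common where an age has 2 libraries. In the Prox1 gate 2860 of 8739 genes did not overlap between E14 and E16, and 2771 between P1 and P7. These shares were not taken for the Npy gate. At P1 the order of levels was Npy (1072 ± 191 CPM, SD, n = 4), Prox1 (687 ± 69.0), Fgfr3 (624 ± 110), Fgf3 (483 ± 39.4), Pmch (256 ± 103), ungated (45.8 ± 7.82) and HC (27.3 ± 20.6). The Prox1 and Fgfr3 gates overlapped, as did ungated cells and HCs, and every other neighbouring pair was apart in all 4 libraries of each. The highest Emid1 of the Pmch gate, 400 CPM, came from P1 replicate 2, the library in which that gate carries the Deiters' list.

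Emid1 was found in 69.8% of thinned P1 Npy cells (63.2 to 75.9%) and 48.8% at E16 (39.9 to 57.8%), against 2.32% of P1 HCs (1.31% without P1 replicate 1). In the Fgf3 gate the cells with Prox1/Fgfr3 had 528, 718, 672 and 605 CPM at P1 and those without had 331, 414, 441 and 356 CPM. The parts were apart at P1, in the reverse order to Matn4. The Prox1 gate was at 196 and 137 CPM at E14, 154, 264 and 289 CPM at E16, 618, 723, 642 and 766 CPM at P1, and 849 and 509 CPM at P7. Ungated cells stayed at 28.2 to 54.5 CPM over all 11 libraries. The P7 glia group had 852 and 977 CPM of Emid1, against 23.7 to 78.0 CPM at P1, and glia were left out of all gates.

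Fbln2 was a weak and scattered gene in the gates. In the Pmch gate, its highest group at P1, it was at 66.8, 121, 51.4 and 272 CPM, and at E16 it was at 255, 11.8 and 46.4 CPM. It was at 0 CPM in both P7 libraries of the Pmch gate, which have only 23 and 6 cells there. The P1 levels of the Pmch gate (128 ± 101 CPM) overlapped those of the Prox1 gate (46.5 ± 36.2), which in turn overlapped ungated cells (24.9 ± 7.12). Higher levels lay outside the gates: ungated cells with at least 2 UMIs of Bmp4, a gene of the outer sulcus, had 962, 1034, 1189 and 1970 CPM at P1, and those with at least 2 UMIs of Fst had 351, 274, 231 and 384 CPM. Every P1 library of the Bmp4 cells was above every library of every gate.

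Smoc2 went against its label as an SC marker. Ungated cells had 243, 339, 279 and 244 CPM at P1, the highest group, followed by HCs at 267, 238, 217 and 90.8 CPM and the Fgfr3 gate at 65.5, 70.1, 105 and 114 CPM. The Prox1, Fgf3, Npy and Pmch gates were lower still, at 0 to 56.2 CPM, and overlapped each other. Ungated cells with at least 2 UMIs of Otoa, a gene of interdental cells, had 1295 and 1311 CPM at E14, 1552, 1818 and 2335 CPM at E16, and 1518, 2260, 2102 and 2030 CPM at P1. These were the highest levels of Smoc2 in any group from E14 to P1.

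At P7 Smoc2 was at or near 0 in the gates. Both P7 libraries were at 0 CPM in the Npy, Pmch, Prox1 and Fgfr3 gates and in the Otoa cells, the only P7 library of the Fgf3 gate was at 0 CPM, and ungated cells were at 3.08 and 1.3 CPM. The P7 libraries are small in the Fgf3 (10 cells), Pmch (23 and 6) and Npy (17 and 17) gates. Smoc2 was weak in these gates at P1 already (means of 23.3, 9.31 and 13.0 CPM), so 0 CPM there does not show a fall. The P7 HC group still had 63.5 and 58.2 CPM. Among thinned ungated cells, 21.1% had a UMI of Smoc2 at P1 and 0.244% at P7, and the P1 share of HCs was 20.3%, so the P1 shares did not set ungated cells apart from HCs.

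The protease gene Prss23 marked most gates at P1, and the Fgf3 gate most of all. That gate was at 186 and 192 CPM at E14, 786, 512 and 704 CPM at E16, 2024, 1175, 1432 and 1913 CPM at P1, and 1037 CPM at P7. The Prox1 gate was at 41.0 and 23.6 CPM at E14, 465, 406 and 434 CPM at E16, 1249, 755, 960 and 1029 CPM at P1, and 660 and 600 CPM at P7. At P1 the Fgf3 (1636 ± 401 CPM), Prox1 (998 ± 204) and Fgfr3 (757 ± 162) gates overlapped in that order and were above the Npy (298 ± 206) and Pmch (220 ± 214) gates, which overlapped ungated cells (182 ± 70.0) and HCs (84.7 ± 105). The Pmch mean was drawn up by its highest library, at 532 CPM, and the median there was 151 CPM.

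Unlike Matn4, Prss23 was in both parts of the Fgf3 gate, at 2244, 1128, 1801 and 1734 CPM with Prox1/Fgfr3 and 1796, 1195, 1230 and 2081 CPM without, and the parts overlapped. In the thinned Prox1 gate the share of cells with a UMI was 3.54% at E14 (0.973 to 8.82%), 34.4% at E16 and 58.5% at P1, against 6.69% of P1 HCs (3.11% without P1 replicate 1). The contrast with ungated cells was not kept at P7. There ungated cells had 1288 and 1039 CPM of Prss23, above both P7 libraries of the Npy, Prox1 and Fgfr3 gates. Cells in any gate were 10.7% of all cells at P1 and 5.54% at P7, and the part of this in the contrast was not tested.

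Cpxm2, the carboxypeptidase-like gene, was not set apart in the gates as a whole. At P1 ungated cells (370, 377, 326 and 427 CPM) and the Fgf3 gate (192, 380, 340 and 345 CPM) overlapped at the top. The Npy, Fgfr3, Prox1 and Pmch gates and HCs followed, all with at most 138 CPM. The Fgf3 signal was again in cells without Prox1/Fgfr3, at 339, 519, 515 and 610 CPM against 50.2, 37.8, 17.9 and 62.6 CPM, with no overlap. Ungated cells with at least 2 UMIs of Fabp7 were higher than either, at 687, 769, 770 and 742 CPM.

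Cpxm2 had lower values at E16 than at E14 in the Fgfr3 gate and in ungated cells. The Fgfr3 gate had 67.5 and 87.1 CPM at E14 and 18.0, 27.8 and 20.8 CPM at E16, then 115, 57.8, 40.8 and 123.3 CPM at P1 and 180 and 129 CPM at P7. Ungated cells had 103 and 96.9 CPM at E14, 72.2, 68.9 and 89.7 CPM at E16, 326 to 427 CPM at P1, and 474 and 406 CPM at P7. Every P1 library of ungated cells thus lay above every E16 library. Neither the Fgfr3 gate nor ungated cells overlapped between E14 and E16. Such gaps were common between these ages: in the Prox1 gate 2860 of 8739 genes did not overlap.

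Socs2, the signalling suppressor, lay above ungated cells and HCs in all 5 gates at P1, as Emid1 did. At P1 it was at 1361, 1800, 1847 and 1895 CPM in the Fgf3 gate, 1130, 1525, 1894 and 1707 in the Prox1 gate and 840, 1457, 1446 and 1432 in the Npy gate. The Fgfr3 gate had 980 to 1360 CPM and the Pmch gate 928 to 1231 CPM. All 5 gates overlapped their neighbours in order, and all lay above HCs (207 to 273 CPM) and ungated cells (152 to 221 CPM).

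HCs had less Socs2 at later ages. The HC group was at 1619 and 1349 CPM at E14, overlapping the gates, at 307, 433 and 448 CPM at E16 and at 174 and 148 CPM at P7. Ungated cells stayed at 152 to 286 CPM from E14 to P1 and had 1298 and 1156 CPM at P7, so that at P7 they overlapped the Fgfr3 gate (1152 and 1264 CPM) and lay above the Npy gate (847 and 781 CPM). The share of thinned ungated cells with a UMI of Socs2 was 17.8% at P1 and 72.3% at P7, and that of HCs was 26.4% and 16.4%.

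The high P7 values of Prss23 and Socs2 outside the gates were seen in ungated cells chosen by Epyc. For Prss23, Socs2 or both they were also seen in those chosen by Otoa, Fst or Calb1. These groups can share cells and are not separate regions: Epyc cells were 7503 of 10754 ungated cells at P1 and 1830 of 2460 at P7. Fabp7 and Bmp4 cells are not given for these 2 genes. Ungated cells with at least 2 UMIs of Epyc had 205, 71.9, 48.5 and 103 CPM of Prss23 at P1 and 1626 and 1307 CPM at P7. The same cells had 78.2, 26.2, 48.9 and 83.5 CPM of Socs2 at P1 and 1171 and 1038 CPM at P7. Otoa cells had 44.0 to 194 CPM of Socs2 at P1 and 1573 and 1478 CPM at P7, and Fst cells had 145 to 571 CPM of Prss23 at P1 and 1771 and 1660 CPM at P7. Those with Calb1 went from 44.3 to 166 CPM of Prss23 at P1 to 2228 and 1599 CPM at P7. Such cells were few at P7 for Calb1 (141 and 108), Otoa (115 and 107) and Fst (124 and 66). These groups were added after the levels had been seen, so no test is given.

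**Figure D3:**
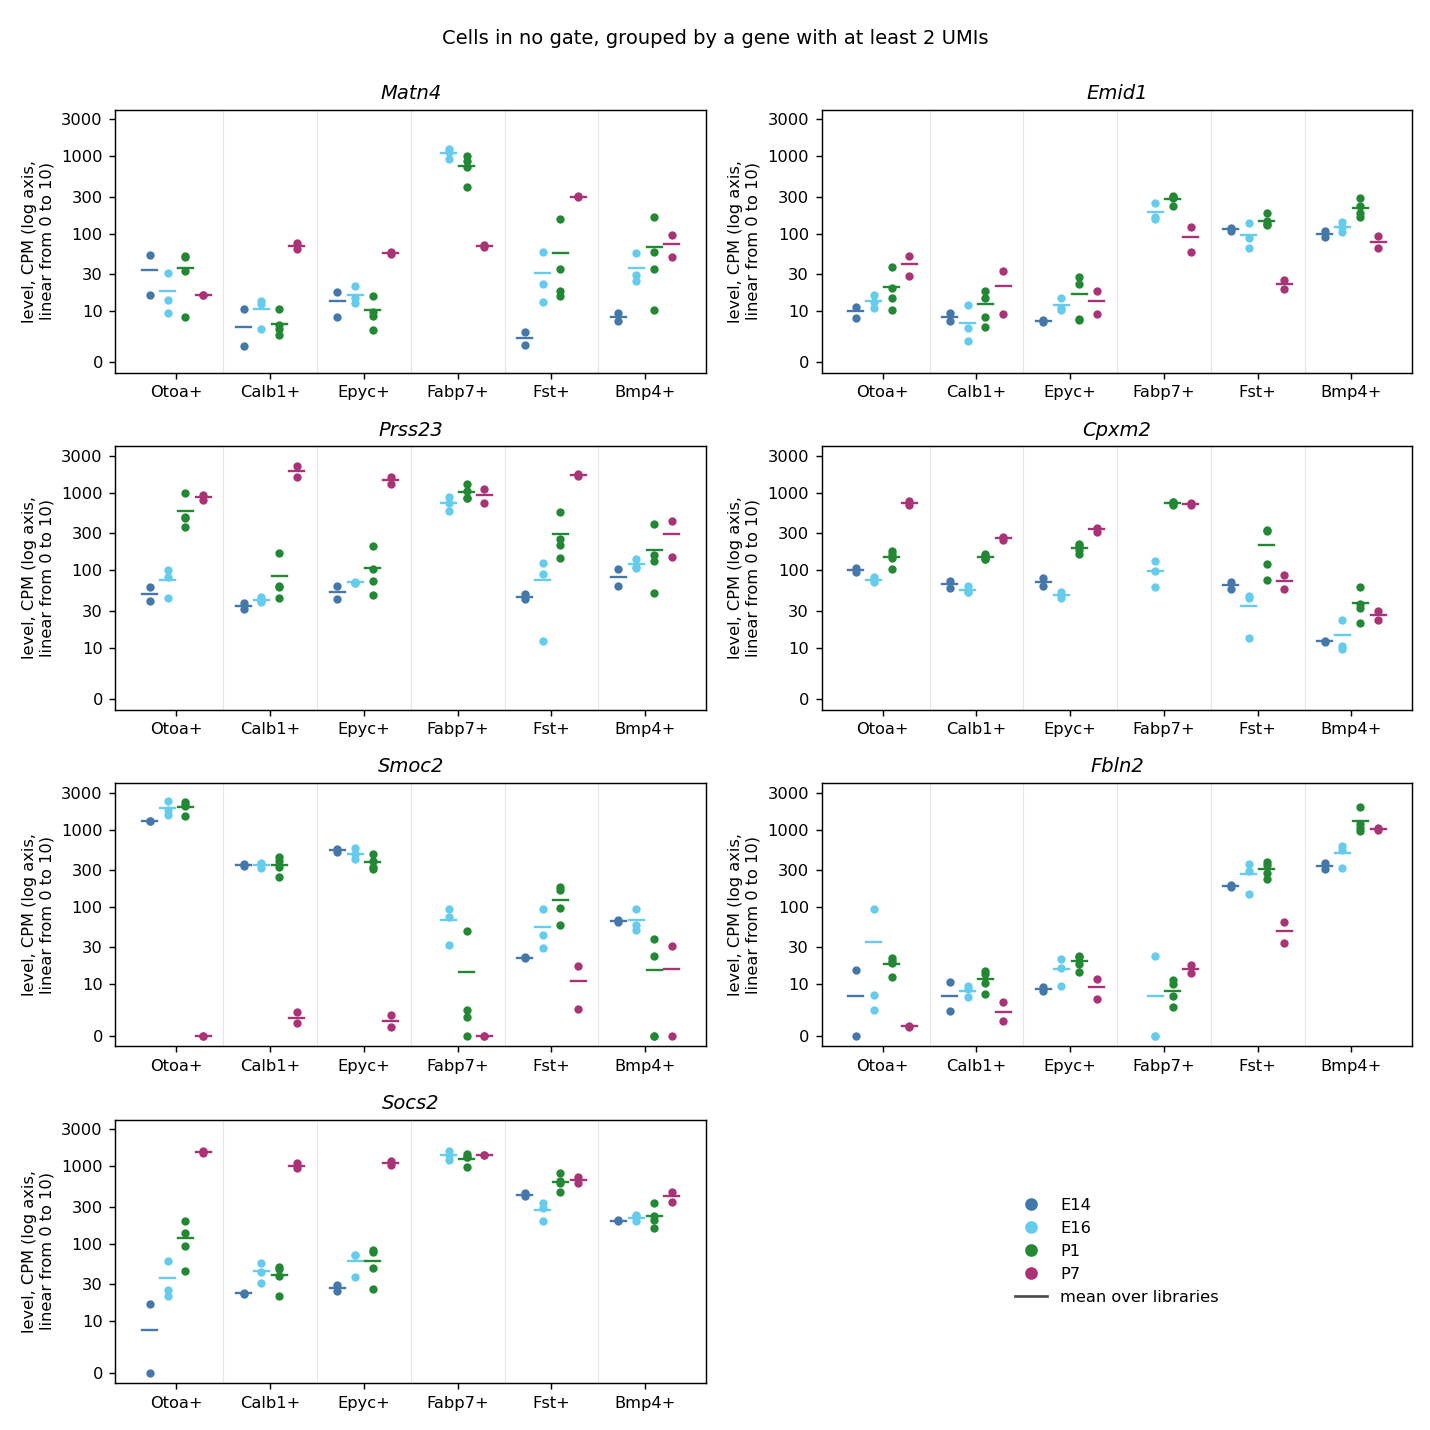
Level in CPM (log axis, linear from 0 to 10) of each of the 7 genes in ungated cells grouped by at least 2 UMIs of Otoa, Calb1, Epyc, Fabp7, Fst or Bmp4, by age, with 1 point for each library and a line for the mean. Smoc2 is highest in Otoa cells until P1 and at 0 CPM there at P7, Fbln2 is highest in Bmp4 cells, and Prss23 and Socs2 are higher at P7 than at P1 in Calb1 and Epyc cells, as are Socs2 in Otoa cells and Prss23 in Fst cells.

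**Figure D4:**
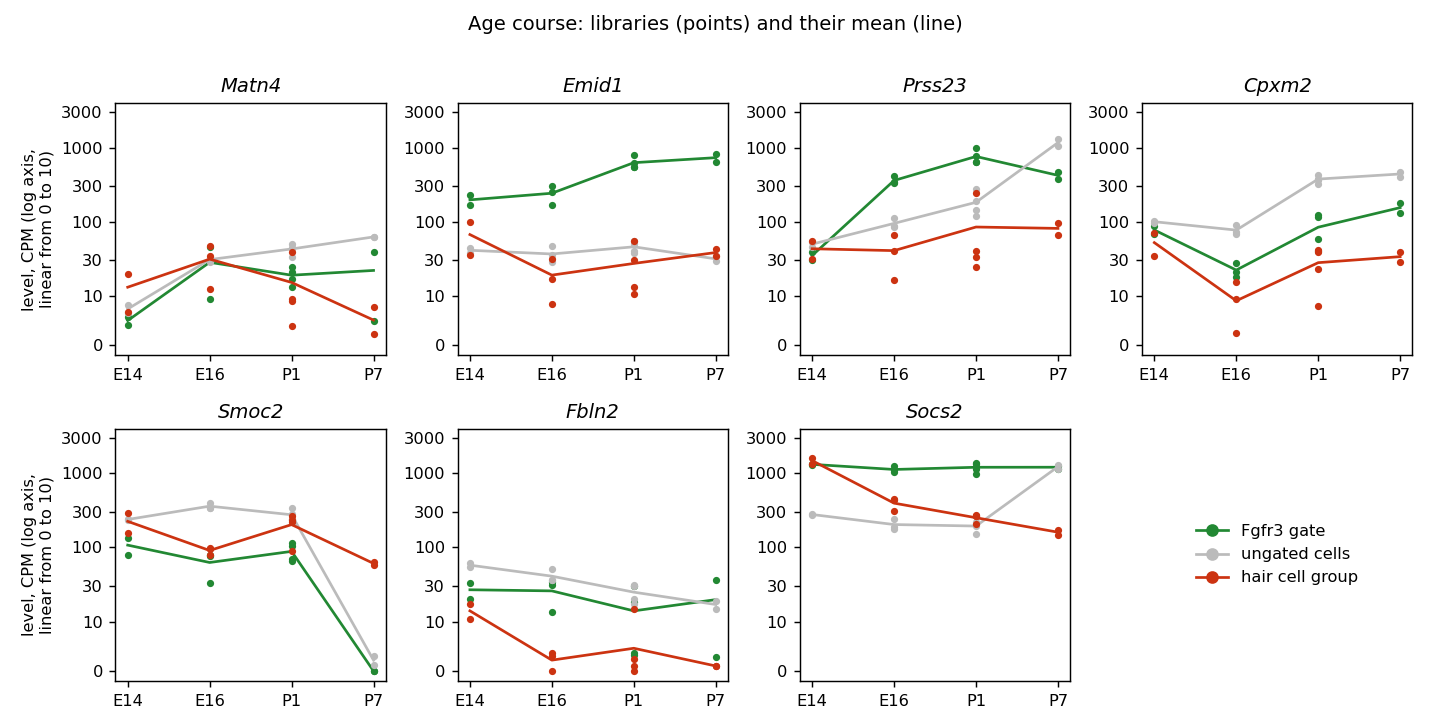
Level in CPM (log axis, linear from 0 to 10) of each of the 7 genes at E14, E16, P1 and P7 in the Fgfr3 gate, ungated cells and the HC group, with 1 point for each library and lines through the means. Emid1 stays above ungated cells at all ages in the Fgfr3 gate, whereas Prss23 and Socs2 of ungated cells meet or pass it at P7.

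Whether the members changed with age inside a gate was then tested, with the thresholds of the gates the same at every age. The cells that pass them were not the same mixture: between E16 and P1 the share of Prox1 cells with Fgfr3 went from 47.5% to 70.8%, that of Npy cells with Fgfr3 from 47.2% to 74.5%, and Fgf3 cells with Prox1/Fgfr3 from 51 of 161 to 172 of 389. Median UMIs per cell of the gates were 2979.5 to 4101 at E16 and 5544 to 6733.5 at P1, and the part of depth and mixture in the differences below was not tested apart from the alternatives named. Levels were compared on the log2(CPM + 10) scale with limma, over all genes whose mean reached 10 CPM, and adjusted p-values (Benjamini-Hochberg) under 0.05 were called. A log2 difference is the later age minus the earlier. Several members had been picked for a high P1 level against other cells, so P1 against E16 is not fully independent of their choice, and gates that share cells do not give separate evidence.

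From E16 to P1, Emid1 rose in the Npy gate by 1.29 (SE 0.27, limma adjusted p = 0.00845) and Cpxm2 by 2.12 (SE 0.45, adjusted p = 0.0103). That is 2 of 7 members tested, against 1.36% of all 8824 genes tested there. All P1 libraries lay above all E16 libraries for both genes, and 1089 of the 8824 genes had libraries that did not overlap. Ungated cells also had more Cpxm2 at P1 (326 to 427 CPM) than at E16. The Cpxm2 rises in this and the following gates were thus not particular to them. The Emid1 call was lost without E16 replicate 2 (1.29, adjusted p = 0.0522) or P1 replicate 2 (1.19, adjusted p = 0.0603), and the Cpxm2 call without E16 replicate 1 (1.51, adjusted p = 0.129). With cells in exactly 1 gate neither was called (Emid1 1.10, adjusted p = 0.676, and Cpxm2 2.60, adjusted p = 0.504). The Cpxm2 call was also lost with a pseudocount of 1 CPM (3.37, adjusted p = 0.0814), with no filter on low values (2.12, adjusted p = 0.0675) and with the replicate block (2.05, adjusted p = 0.0509).

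In the Fgf3 gate 3 of 7 members were called, against 1.15% of 8781 genes. Emid1 rose by 1.68 (SE 0.35, limma adjusted p = 0.0106), Prss23 by 1.27 (SE 0.25, adjusted p = 0.00788) and Cpxm2 by 1.91 (SE 0.39, adjusted p = 0.00932). Matn4, whose level in this gate was furthest from the other gates, was 0.91 higher (SE 0.38, adjusted p = 0.286), with overlapping libraries, and was called without E16 replicate 3 (1.40, adjusted p = 0.0460). Socs2 was 0.52 higher (SE 0.21, adjusted p = 0.265), with libraries that did not overlap, which held for 1125 of the 8781 genes. The calls depended on E16 libraries and on settings. Emid1 was not called without E16 replicate 1 (1.15, adjusted p = 0.102), Prss23 without E16 replicate 2 (1.09, adjusted p = 0.0964), and Cpxm2 without E16 replicate 1 (1.53, adjusted p = 0.0935) or 2 (1.78, adjusted p = 0.0766). With the other gate threshold, at least 2 UMIs, none of the 3 was called (Emid1 2.52, adjusted p = 0.183, Prss23 1.18, adjusted p = 0.0666, and Cpxm2 1.17, adjusted p = 0.391), nor with no filter on low values (adjusted p 0.127 to 0.176).

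The Prox1 gate gave 2 calls among 7 members, against 1.79% of 8739 genes. Emid1 rose by 1.55 (SE 0.27, limma adjusted p = 0.00152), a call that held without any single library. Prss23 rose by 1.16 (SE 0.24, adjusted p = 0.0105), and this call was lost without E16 replicate 2 (1.11, adjusted p = 0.0721), the library with blood genes. With cells in exactly 1 gate it was 0.58 (adjusted p = 0.572).

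In the Fgfr3 gate 3 of 7 members were called, against 4.54% of 8758 genes. Emid1 rose by 1.36 (SE 0.23, limma adjusted p = 0.000926) and Prss23 by 1.04 (SE 0.21, adjusted p = 0.00569), and both calls held without any single library. Cpxm2 rose by 1.44 (SE 0.31, adjusted p = 0.0080), a call lost without E16 replicate 1 (1.35, adjusted p = 0.0549) or with the other gate threshold (1.47, adjusted p = 0.0749).

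In the Pmch gate limma called 0 of the 6 members tested, against 0.423% of 8283 genes, and 1 of the 6 had an unadjusted p under 0.05. Prss23 was 1.82 higher at P1 (SE 0.61, adjusted p = 0.225) and Emid1 0.95 higher (SE 0.53, adjusted p = 0.466). The E16 libraries of this gate have 6, 9 and 28 cells. All-gene medians shifted by 0.11 in the Npy gate, 0.13 in the Fgf3 gate and 0.30 in the Pmch gate on the same scale, and by less than 0.1 in the others.

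**Figure D5:**
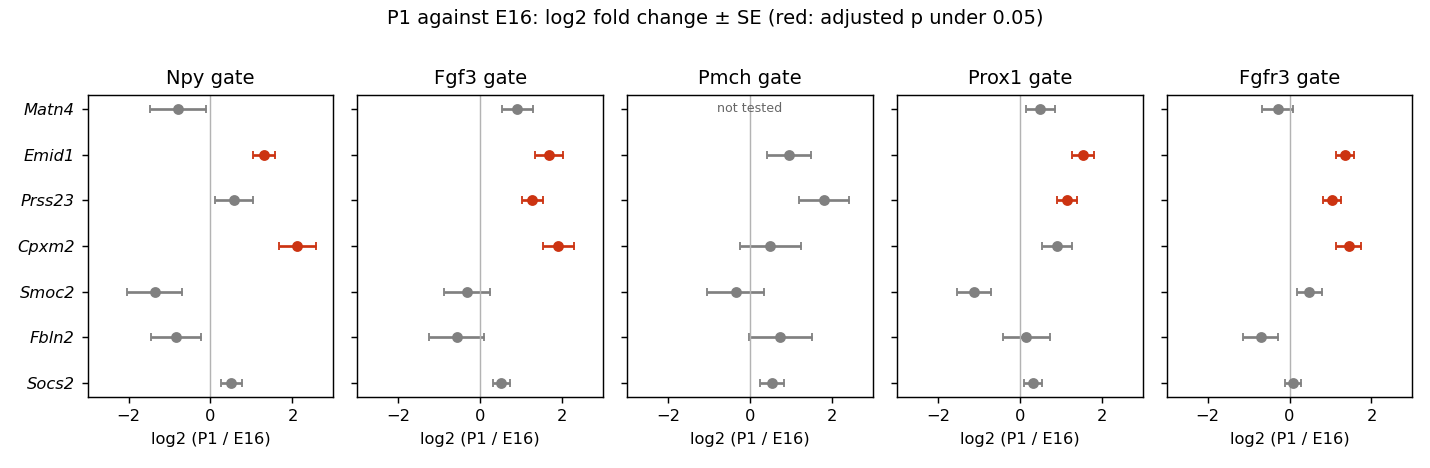
Log2 difference of each of the 7 genes between P1 and E16 in each gate, on the log2(CPM + 10) scale, with bars of 1 standard error, red points for adjusted p under 0.05 and grey points for the others. Emid1 is called in the Npy, Fgf3, Prox1 and Fgfr3 gates (1.29 to 1.68), Prss23 and Cpxm2 in 3 gates each, and no gene in the Pmch gate.

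Gates were also set against each other by testing the difference of their P1 against E16 changes, since a call in only some gates does not show that they differ. By limma, 0 of 7 members were called in each of the 3 tests, and an unadjusted p under 0.05 was found for Cpxm2 (Npy minus Pmch) and Prss23 (Npy minus Fgf3). For Emid1 the change in the Npy gate minus that in the Pmch gate was 0.35 (limma adjusted p = 0.759), Npy minus Fgf3 was -0.39 (adjusted p = 0.7505), and Fgf3 minus Pmch was 0.73 (adjusted p = 0.628). For Cpxm2 the 3 differences were 1.63, 0.21 and 1.41, and for Prss23 they were -1.25, -0.70 and -0.55, with adjusted p from 0.55 to 0.901 for these 6. Over all genes 0.0351%, 0.0114% and 0.0% were called in the same 3 tests (3, 1 and 0 genes), and 761, 713 and 722 genes had an unadjusted p under 0.05.

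Earlier and later ages were compared in the Prox1 gate alone. From E14 to E16, 1 of 7 members was called, against 1.37% of 8739 genes: Prss23 rose by 3.42 (SE 0.29, limma adjusted p = 3.84e-07), with 41.0 and 23.6 CPM at E14 and 406 to 465 CPM at E16, and the call held without any single library. Cpxm2 had a log2 difference of -1.47 (SE 0.44, adjusted p = 0.116), with 66.3 and 76.9 CPM at E14 and 18.1, 16.0 and 24.5 CPM at E16, which did not overlap. The libraries of 2860 of the 8739 genes did not overlap in this comparison. The all-gene median shifted by -0.16.

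From P1 to P7, 2 of 7 members were called, against 9.78% of 8739 genes. Both had no UMI at P7 and passed the filter only through earlier ages, so they could be called only as lower. Matn4, already weak in this gate at P1 (26.3, 37.4, 20.0 and 26.2 CPM), had no UMI in 36 cells at P7 (limma log2 difference -1.89, SE 0.40, adjusted p = 0.00398). Smoc2 went from 42.7, 28.7, 9.67 and 26.0 CPM to no UMI in the same cells (log2 difference -1.79, SE 0.47, adjusted p = 0.0172). A floor of 3 UMIs over the 290974 UMIs of the P7 group is 10.3 CPM. The P1 mean of Matn4 was 2.67-fold this floor and that of Smoc2 2.60-fold. These ratios leave out the spread between P1 libraries, and the P1 library of Smoc2 at 9.67 CPM lay below the floor. The log2 differences rest on the added 10 CPM, so neither they nor the ratios are bounds. With no cells left out of the gate, the Matn4 difference was -0.22 (adjusted p = 0.854), and with the other gate threshold it was -1.74 (adjusted p = 0.224) and that of Smoc2 -1.21 (adjusted p = 0.439). The Smoc2 call was lost without P7 replicate 4 (-1.79, adjusted p = 0.0749) or 5 (-1.79, adjusted p = 0.0514). With a replicate block the differences were -1.86 for Matn4 (adjusted p = 0.101) and -1.85 for Smoc2 (adjusted p = 0.0881). With no filter on low values Smoc2 was not called either (-1.79, limma adjusted p = 0.0646). Cpxm2 was 1.25 higher (SE 0.41, adjusted p = 0.0566; 1.70, adjusted p = 0.0335 without P7 replicate 5) and Prss23 had a log2 difference of -0.63 (SE 0.28, adjusted p = 0.153). The all-gene median shifted by -0.13.

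The relatives of the 7 genes, and the genes their products are known to work with, were drawn up as 9 lists with 66 genes besides the members, and each gate was compared with ungated cells at P1 for them. A gene under 10 CPM in either group passed the filter only through the other and could be called in 1 direction only, which holds for 8 of the called genes in the Npy gate, 2 in the Fgf3 gate, 5 in the Pmch gate, 6 in the Prox1 gate and 4 in the Fgfr3 gate. In the Npy gate 27 of the 39 genes tested were called, 7 higher and 20 lower, against 28.0% of all genes. In the Fgf3 gate 18 of 39 were called, 7 higher and 11 lower (25.1% of all genes), in the Pmch gate 16 of 39, 9 higher and 7 lower (12.3%), in the Prox1 gate 28 of 40, 10 higher and 18 lower (34.2%), and in the Fgfr3 gate 26 of 38, 10 higher and 16 lower (36.0%). The lists hold well-expressed matrix genes and were drawn up with earlier results known, so the shares are descriptions of the lists. All called directions held after upper quartile scaling, but some calls were lost. These were Fstl1 in the Fgf3 gate, Col4a2 in the Pmch and Prox1 gates, Serpinh1 in the Pmch gate, and Cpd in the Prox1 and Fgfr3 gates.

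Serpine2, a secreted inhibitor of trypsin-like proteases such as thrombin, was higher in all 5 gates. It was at 398 CPM in the Fgf3 gate, 426 in the Npy gate, 641 in the Fgfr3 gate, 768 in the Prox1 gate and 882 in the Pmch gate, against 28.3 CPM in ungated cells (log2 differences 3.44, 3.53, 4.10, 4.34 and 4.56, all limma adjusted p at most 6.92e-08). Its levels in the Npy and Pmch gates were thus apart from ungated cells, where those of the protease gene Prss23 overlapped them. Serpinh1, a collagen chaperone of that list, was lower in 4 gates (-0.19 to -0.41) and higher in the Pmch gate (0.51, limma adjusted p = 0.00396, which became 0.101 after upper quartile scaling).

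Among the EMI domain genes, Emilin2, a glycoprotein of elastic fibres, passed the filter only through the gates, with 33.6 to 55.2 CPM in the Npy, Fgf3, Prox1 and Fgfr3 gates and 0.997 CPM in ungated cells. Col26a1, which also carries the domain, was higher in the Pmch gate (99.2 against 14.0 CPM, log2 difference 2.14, limma adjusted p = 7.73e-05). Emid1 had its own highest level in the Npy gate and its lowest level among the gates in the Pmch gate. None of the 3 other matrilins was tested in any gate: Matn1 is not listed at P7 and Matn3 not at E16, and Matn2 did not reach a mean of 10 CPM.

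The fibulins and the SPARC relatives ran mostly the other way. Efemp1 and Fbln5 were lower in 5 and 4 gates and Efemp2 in 4, while Fbln7, which passed the filter only through the Pmch gate, was at 93.5 CPM there against 2.30 CPM in ungated cells. Sparcl1 was lower in all 5 gates, from -0.56 in the Fgf3 gate to -5.52 in the Pmch gate, with 1644 CPM in ungated cells. Spock1 and Smoc1, the nearest relative of Smoc2 on the list, were lower in all 5 gates too. Sparc itself was higher in the Fgf3 gate (0.42) and lower in the Npy gate (-0.28).

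Of the carboxypeptidases, Cpe, which trims neuropeptide and hormone precursors, was lower in 4 gates (-0.49 to -2.92), and Cpz and Cpxm1 were lower in 3. Cpd was higher in the Prox1 (0.47) and Fgfr3 (0.36) gates, calls that were lost after upper quartile scaling. Of the other SOCS genes, Socs6 was higher in 4 gates (1.38 to 2.19) and Socs5 in 3 (0.91 to 1.39), while Socs1 was lower in 4 (-0.52 to -1.18) and Socs3 in 3. Igf1, a growth factor downstream of growth hormone, was lower in 4 gates (-1.41 to -3.91) but higher in the Pmch gate, at 676 against 348 CPM (0.86, limma adjusted p = 0.00135). Igf2 was lower in all 5. Among basement membrane genes Lamb1 was lower and Lamb2 higher in the same 4 gates, those other than Pmch, and Agrn was higher in all 5.

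The same lists were followed with age. From E16 to P1 limma called 0 of 38 in the Npy gate, 0 of 39 in the Pmch gate and 0 of 36 in the Prox1 gate, with 7, 8 and 4 genes at an unadjusted p under 0.05. In the Fgf3 gate 1 of 38 was called, Serpine2 (1.33, adjusted p = 0.0439, which became 0.0707 after upper quartile scaling). In the Fgfr3 gate 4 of 35 rose, against 4.54% of all genes called: Sparcl1 (1.34), Socs5 (1.06), Serpine2 (1.02) and Efemp2 (0.90, adjusted p = 0.0365, which became 0.0565 after that scaling). From E14 to E16 in the Prox1 gate 0 of 36 were called, with 7 at an unadjusted p under 0.05. From P1 to P7, 6 of 36 were called, against 9.78% of all genes, with Sparc (1.17) and Jak1 (1.65) higher, and Fstl1 (-2.60) and Agrn (-1.99) lower. Hmcn1 and Igf1 had no UMI left in the P7 cells. Their P1 means were 3.95-fold and 4.77-fold the floor of 10.3 CPM, leaving aside the spread between P1 libraries. Both genes too passed the filter only through earlier ages and could be called only as lower.

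The genes whose levels ran most like each member were sought over 63 points, each a gate or the ungated cells of a library, among 8824 genes. The points share libraries and cells, so Pearson's r is only a description. For Matn4 they were Wfdc12 (r = 0.77), Ednrb (0.77) and Trh (0.76), and for Emid1 they were Ninj1 (0.85), Smagp (0.84), a gene of the pillar cell list, and Pkd2l1 (0.84). For Prss23 they were Me3 (0.81), Igfbp3 (0.74) and Lfng (0.73), a modulator of Notch receptors and a gene of the Deiters' list. Cpxm2 went with Tspan8 (0.84), Col9a1 (0.82) and Gsn (0.79), and Smoc2 with Tmem132c (0.86), H19 (0.85) and Tns3 (0.84). Fbln2 ran closest to Bmp4 (0.69), Fst (0.67) and Gata2 (0.63), the 3 genes of the Claudius and outer sulcus list. Socs2 ran closest to Emb (0.74), Inhba (0.72) and Zbtb20 (0.70). Between members the highest r was that of Emid1 with Socs2 (0.64) and the lowest that of Smoc2 with Socs2 (-0.67), so the 7 genes do not share 1 pattern.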

How the data were processed

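Cells of the cochlear duct floor were captured by droplet (10x Chromium) and sequenced from transcript ends. Per the methods, the authors aligned reads to mm10 with Cell Ranger 2.1.1, filtered cells in Seurat 2.0 on genes, UMIs, mitochondrial and stress genes, and deposited natural log values: a cell's UMIs of a gene were scaled to a total of 10000, 1 was added and the logarithm taken. UMIs worked back from it were whole within 2% for 100% of values, and gates rest on them. No doublet caller was run. Cells with UMIs of at least 3 HC, 2 glia or 3 mesenchyme markers, or 10 UMIs of Oc90 (a roof gene), were left out of gates and ungated cells.

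Levels per group and library (at least 5 cells) were tested in limma 3.58.1 (R 4.3.3) on log2(CPM + 10), with a mean trend, a mean of at least 10 CPM and genes listed at all 4 ages (18667). Gates within an age contrast were fitted with all ages of that gate, gates against ungated cells with library as a block, and gating genes were left out. Adding 10 CPM makes differences of weak genes smaller. P-values by age rest on 1 estimate of the spread between collections, shared by all ages of a gate. This estimate is drawn towards a trend over all genes (7 residual and 15.45 prior degrees of freedom in the Prox1 gate). At E14 and P7 a mean rests on 2 libraries, and the spread at these ages was not estimated on its own. The fit was tested on simulated data. Shares were taken at 1500 UMIs per cell, with exact 95% intervals. Ranges of depth over the libraries are given in the report. Python 3.11.15, pandas 2.3.3, NumPy 2.4.6 and SciPy 1.17.1 were used.

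The members, lists and gates were chosen with earlier results of these data known. Named genes are the 7 members, list genes that passed the test, and the 3 genes most like each member. Alternatives were another pseudocount, filter, scaling, gate threshold, cell set, block and library set. HC shares without P1 replicate 1 were added after seeing the data. The summed list of inner phalangeal and border cell markers is not reported here.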

Additional observations from a re-analysis of the deposited data

Results flagged for a closer look

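In groups of 4 libraries at P1, 63 sets of values were searched for a library far from the others (Dixon's test, critical value 0.829), and 9 were found, where chance alone gives about 1 in 20. In 7 of the 9 the library was P1 replicate 1. Smoc2 in its Npy gate was at 32.2 CPM, against 4.52 to 7.89 CPM in the other 3 libraries, and Socs2 in the same cells at 840 CPM, against 1432 to 1457. Matn4 in its Pmch gate was at 58.8 CPM (0 to 7.33 in the others), and Socs2 in its Fgf3 cells with Prox1/Fgfr3 at 1204 CPM (1860 to 1954). In its HC group Matn4 was at 38.5 CPM (3.85 to 9.34), Prss23 at 241 CPM (24.5 to 40.1) and Fbln2 at 14.9 CPM (0 to 2.52). The other 2 were Fbln2 in Fgf3 cells with Prox1/Fgfr3 of replicate 4, at 6.63 CPM from 3 UMIs (0 in the others), and Socs2 in HCs of replicate 2, at 207 CPM (262 to 273).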

How the results depend on the processing

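Of 202 alternative values for the 13 called changes of members with age, 167 kept the call. Emid1 in the Prox1 and Fgfr3 gates and Prss23 in the Fgfr3 gate and, for E16 against E14, in the Prox1 gate kept it under every alternative run, and the calls that single libraries, the gate threshold or the choice of cells decide are named in the report. With a pseudocount of 1 CPM, Cpxm2 in the Npy gate (adjusted p = 0.0814) and Emid1 (0.0665) and Cpxm2 (0.0589) in the Fgf3 gate were not called. With no filter, Cpxm2 in the Npy (0.0675) and Fgfr3 (0.0534) gates and Smoc2 in P7 against P1 (0.0646) were not called either. With cells in exactly 1 gate, Emid1 in the Fgf3 gate was not called (0.0719). Without the 5% of cells with most UMIs, Smoc2 in P7 against P1 was not called (0.0582). Calls gained were those of Matn4 in the Fgf3 gate and Smoc2 in the Npy gate (-2.57, 0.0137) without E16 replicate 3, Fbln2 in P7 against P1 without P1 replicate 3 (-1.90, 0.0308), and Cpxm2 in P7 against P1 without P7 replicate 5 or without the 5% of cells with most UMIs (1.59, 0.0213). All these p are limma's. Of all values by age of the 7 members, 809 stayed on their side of the threshold in the same direction, 35 lost a call, 5 gained it and 33 turned their direction, and the cause was not tested.

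Turned directions were in values that were not called. With cells in exactly 1 gate, P1 against E16 became 2.03 for Matn4 in the Npy gate, 0.80 for Smoc2 in the Fgf3 gate and -0.35 for Socs2 in the Fgfr3 gate, E16 against E14 became 0.44 for Socs2, and the gate differences of Prss23 became 1.60 (Npy minus Pmch), 0.64 (Npy minus Fgf3) and 0.49 (Fgf3 minus Pmch). With no cells left out, Smoc2 in E16 against E14 became -0.33. With the other gate threshold (2 UMIs in every gate), P1 against E16 became 0.51 for Smoc2 in the Fgf3 gate, -0.29 for Fbln2 in the Prox1 gate, and -0.55 for Smoc2 and 0.20 for Fbln2 in the Fgfr3 gate. Fbln2 in the Prox1 gate became -0.40 with a pseudocount of 1 CPM and -0.80 without the 5% of cells with most UMIs, where its P7 against P1 value became 0.060. Upper quartile scaling gave 0.021 for Socs2 in E16 against E14 and -0.033 for Emid1, Npy minus Pmch. Leaving out 1 library at a time gave -1.36 to 0.50 for Fbln2 and -0.75 to 0.19 for Smoc2 in the Fgf3 gate, -0.090 to 1.71 for Fbln2 in the Pmch gate, -0.20 to 0.86 for Fbln2 in the Prox1 gate, -0.72 to 0.052 for Matn4 in the Fgfr3 gate, -0.22 to 0.023 for Socs2 in E16 against E14, -0.42 to 0.31 for Emid1 in P7 against P1, -0.70 to 0.14 for Emid1 and -0.18 to 0.54 for Cpxm2 in Npy minus Fgf3, and -1.15 to 0.16 for Prss23 in Fgf3 minus Pmch.

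The number of genes called over all genes moved more. For P1 against E16 it was 120, 101, 35, 156 and 398 in the Npy, Fgf3, Pmch, Prox1 and Fgfr3 gates. It became 45, 7, 19, 64 and 185 with no filter on low values, which tests more genes. With a pseudocount of 1 CPM it became 57, 42, 21 and 94 in the first 4 gates, and 71 for E16 against E14 (120 as reported) and 675 for the Pmch gate against ungated cells (1032). With cells in exactly 1 gate it became 0 in the Npy gate, 77 for E16 against E14, and, against ungated cells, 350, 1358, 708 and 1047 in the Npy, Fgf3, Prox1 and Fgfr3 gates (2394, 2142, 2929 and 3062), and P7 against P1 gave no value. The other gate threshold gave 37 in the Fgf3 gate and 426 for P7 against P1 (855). Summed UMIs gave 57 and upper quartile scaling 8 in the Pmch gate, and leaving out the 5% of cells with most UMIs gave 69 in the Npy gate. Without library as a block, gates against ungated cells gave 1114, 737, 576, 1183 and 794. The 3, 1 and 0 genes of the gate differences became 1, 0 and 0 with no filter, 0, 0 and 0 with a pseudocount of 1 CPM, 1 and 0 in the first 2 with the other gate threshold, 2 for Npy minus Fgf3 and 1 for Fgf3 minus Pmch with 1 gate, and 0 for Npy minus Fgf3 with no cells left out, summed UMIs or upper quartile scaling. Leaving out 1 library at a time gave 52 to 219, 47 to 303, 15 to 96, 72 to 218 and 154 to 636 genes in the 5 gates, 25 to 155 for E16 against E14, 528 to 996 for P7 against P1, 680 to 1081 for the Pmch gate against ungated cells, 1 to 11 for Npy minus Pmch and 0 to 4 for Npy minus Fgf3. Upper quartile scaling moved the split of higher and lower calls from 219 and 179 to 148 and 202 in the Fgfr3 gate, from 10 and 25 to 5 and 3 in the Pmch gate, and from 297 and 558 to 233 and 761 for P7 against P1. Against ungated cells it moved from 1251 and 1143 to 993 and 1349 (Npy), 1304 and 838 to 931 and 1231 (Fgf3), 472 and 560 to 349 and 742 (Pmch), 1753 and 1176 to 1288 and 1546 (Prox1), and 1866 and 1196 to 1361 and 1541 (Fgfr3).

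Replicate numbers did not pair the libraries: over 23 comparisons, within a gate, of libraries of the same number at different ages, the correlation of deviations from the group means was -0.10 to 0.087, none above 0.1, and in 5 of these comparisons the library correlated best with its own number. With the replicate block, 0 genes were called in the Pmch gate, 272 for E16 against E14 and 542 for P7 against P1, Emid1 in P7 against P1 became 0.15, and the calls of Cpxm2 in the Npy gate (2.05, limma adjusted p = 0.0509) and of Matn4 and Smoc2 in P7 against P1 were lost. Groups under 10 cells at E16 and P7 and medians of 2478 to 2750 UMIs per cell at E16 limit what can be seen.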
